A study of Mus musculus with 3 samples.

Results

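The astrocyte and Bergmann glia genes described here are 32 named genes of the astrocyte lineage, all found among the 32531 gene symbols of the count tables. They were chosen by name as markers or abundant products of astrocytes, with earlier results of these data known. The study purified RNA on tagged ribosomes (translating ribosome affinity purification, TRAP) from the deep cerebellar nuclei of adult mice. The animals carried the Htr6-TRAP transgene of line NIDA113 on the C57BL/6J strain, in which a ribosomal protein fused to a green fluorescent protein (EGFP/Rpl10a) is made in the cells that read the Htr6 regulatory sequence. All 3 libraries are immunopurified RNA of 1 group, numbered replicates 1 to 3, and each is named by its number below. The series is described as a study of neurons, so the glial genes are not markers of the cells it set out to profile. Neither unpurified RNA nor another line was analysed here, and the levels say how abundant an RNA was after purification, not whether purification enriched it. RNA from glia that make tagged ribosomes and RNA carried along from other cells cannot be told apart in these libraries, nor can fewer cells of a type and less RNA per cell. The labels do not say whether the replicates are separate animals, so the spread between them may be technical.

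Astrocytes clear transmitter, buffer potassium and move water, and they hold gap junctions with each other. Their end feet on blood vessels carry the water channel Aqp4. In the cerebellum the lineage includes stellate astrocytes of the white matter and deep nuclei and Bergmann glia, whose cell bodies lie beside those of Purkinje cells in the cortex. The 32 genes were divided by general knowledge into 16 that are largely restricted to the lineage, such as Aqp4, Gja1 and Aldh1l1, and 16 that neurons, oligodendrocytes or vascular cells also use, such as Aldoc, which Purkinje cells make, and the secreted proteins Sparcl1 and Clu.

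The libraries held 7622010 to 8842058 counts on genes. A level is given in counts per 1000000 counts (CPM), scaled for library composition, and genes are compared with each other only per kilobase of exon (RPKM). Errors are SDs over the 3 libraries. A gene was called detected at 3 counts or more in every library. That is 0.340 to 0.397 CPM depending on the library, and it covers counting error only. The pan-neuronal markers summed to 35394, 34746 and 28617 CPM in replicates 1, 2 and 3, and all 12 were detected.

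The glial genes were present at a wide range of levels. Of the 32, 31 were detected, against 31.5% of all gene rows and 47.4% of the protein-coding genes with a gene model, and Mt3 was the exception. Mean levels reached at least 10 CPM for 24 genes, at least 100 CPM for 9 and at least 1000 CPM for Sparcl1 alone. Among all protein-coding genes 10% reached 100 CPM. Together the 32 genes made up 4537, 4678 and 4549 CPM in replicates 1, 2 and 3 (4588 ± 78.4; SD, n = 3). This total was steady while its parts were not, and Sparcl1, Slc4a4, Aldoc, Ndrg2 and Mt2, the 5 genes of highest mean CPM, held 72.5%, 70.3% and 67.9% of it.

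**Figure D1:**
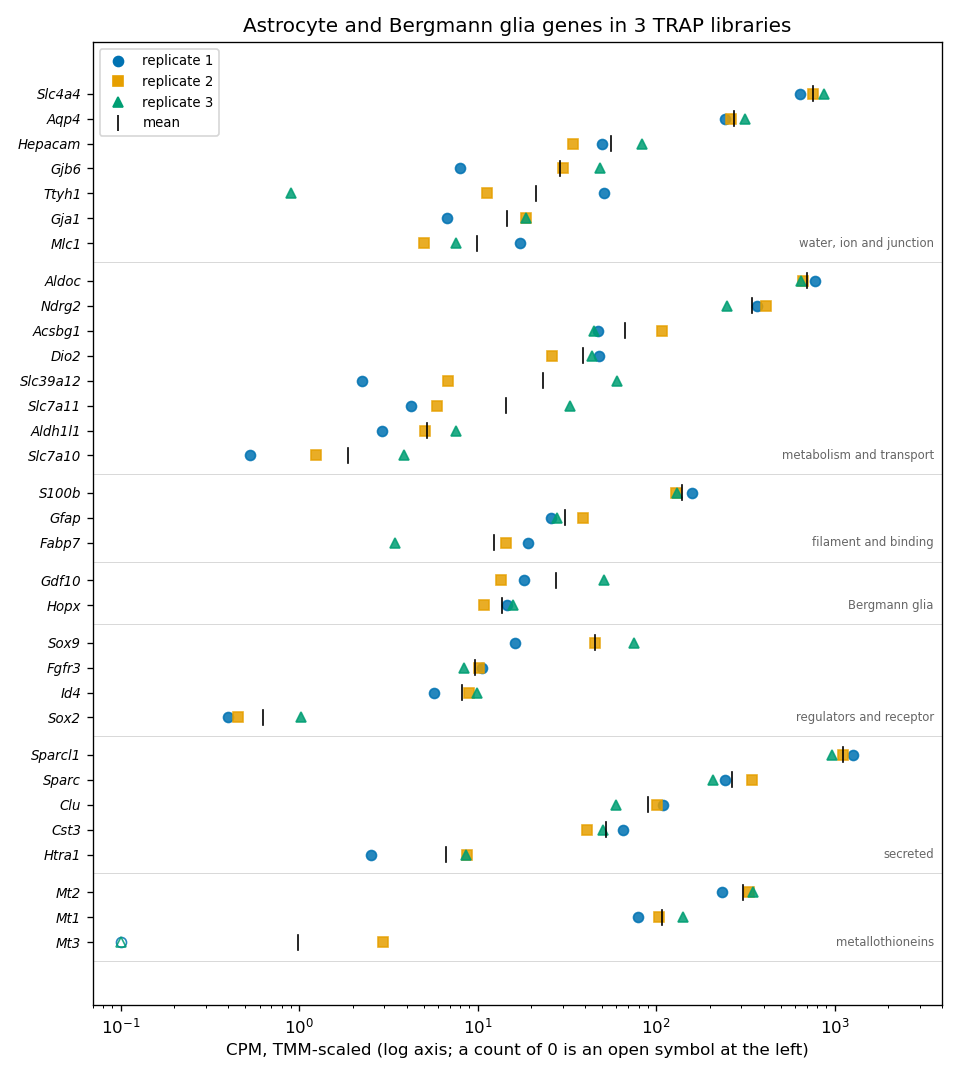
Level of each of the 32 genes in CPM on a log axis, grouped by role, with 1 symbol per library and an open symbol for a count of 0. The symbols of Slc4a4, Aldoc and Sparcl1 lie close together at 638 to 1274 CPM, whereas those of Slc39a12 and Ttyh1 spread over more than a factor of 10.

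The metallothioneins are small cysteine-rich proteins that bind zinc and copper. Mt1 and Mt2 are induced by metals, stress and glucocorticoids in many cells and are abundant in astrocytes, and Mt3 is the brain form. The genes lie in a row on chromosome 8 in the same direction. The RNA of Mt3 was nearly absent and those of its neighbours were not. The DNA just before each RefSeq start is shown as a description only. The 150 bases end 10 bases before the RefSeq start (GRCm38.p6, plus strand), at chr8:94152447-94152596 for Mt3, chr8:94172458-94172607 for Mt2 and chr8:94178929-94179078 for Mt1. Capitals mark matches to TGCACNC or TGCGCNC, 2 spellings of the core of the metal response element, on either strand.
Mt3: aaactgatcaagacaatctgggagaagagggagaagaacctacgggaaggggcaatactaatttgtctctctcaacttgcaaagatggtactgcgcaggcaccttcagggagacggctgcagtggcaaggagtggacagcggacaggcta
Mt2: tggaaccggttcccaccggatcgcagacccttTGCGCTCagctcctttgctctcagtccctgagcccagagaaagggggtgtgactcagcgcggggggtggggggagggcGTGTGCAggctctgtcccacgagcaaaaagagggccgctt
Mt1: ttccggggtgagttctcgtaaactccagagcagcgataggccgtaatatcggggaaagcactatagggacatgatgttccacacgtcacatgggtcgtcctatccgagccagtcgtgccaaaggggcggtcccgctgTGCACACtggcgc
The Mt2 stretch held 2 matches, the Mt1 stretch 1 and the Mt3 stretch 0. These counts hold for the RefSeq starts only. The GENCODE model of Mt2 starts at 94172664, against 94172618 in RefSeq. Starts of other transcripts, such as the shorter principal transcript of Mt1, were not used, so matches near them can be missed. Of 32851 stretches of the same length and place at other RefSeq starts, 14.3% held at least 1 match and 2.76% at least 2. In the 300 bases around the start that the table holds, the matches numbered 4 for Mt2, 3 for Mt1 and 1 for Mt3, and 0.517%, 1.97% and 25.7% of such windows held at least that many. A match describes the letters, not a bound site, and the part of these sequences in the RNA levels was not tested.

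Mt2 was present at 236, 334 and 350.2 CPM in replicates 1, 2 and 3, and Mt1 at 79.4, 104 and 142 CPM. Both genes were lowest in replicate 1 and highest in replicate 3. Mt3, at chr8:94152607-94154146, had 0, 26 and 0 counts, so its only counts came from replicate 2, where it stood at 2.95 CPM. A count of 0 allows up to 0.397 CPM in replicate 1 and 0.385 CPM in replicate 3. Mt1 had at least 200-fold more counts than Mt3 in replicate 1, 35.2-fold more in replicate 2 and at least 368-fold more in replicate 3, with the bounds set at 3 counts per library. Per length, Mt2 was the highest of the 32 genes at 521 ± 105 RPKM, and Mt1 stood at 86.9 ± 25.2 RPKM. On the log2(RPKM + 0.1) scale Mt2 lay 2.60 ± 0.19 log2 units above Mt1 and was higher in 3 of 3 libraries. A sign-flip permutation test, exact and two-sided, gave p = 0.25. With 3 libraries it cannot go lower, and each difference given below as holding in 3 of 3 libraries has this p. With the length of the principal coding transcript, an alternative added after seeing the data, the difference was 1.62, because the Mt1 model has 1246 exon bases and its principal transcript 549. The Mt2 gene model is overlapped over 73.5% of its exon bases by a model on the opposite strand, Gm45774, which has no row in the tables, and the strand setting of the counting is not given in the sources used here. Mt1 and Mt3 have no such overlap.

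Aqp4, the water channel of astrocyte end feet, had 243, 263 and 313 CPM in replicates 1, 2 and 3, and its libraries lay within a factor of 2 of each other. Slc4a4, an electrogenic sodium bicarbonate cotransporter, had 638, 753 and 873 CPM. By CPM, Slc4a4 ranked between 138 and 227 in a library and Aqp4 between 589 and 862. Per length Slc4a4 (69.8 ± 10.9 RPKM) lay 0.67 ± 0.07 log2 units above Aqp4 (43.8 ± 5.76 RPKM), in 3 of 3 libraries. Of the 7 genes for membrane channels, transporters and junction proteins, these 2 varied least relative to their mean.

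The connexins that form astrocyte gap junctions were lower per length, at 10.8 ± 7.57 RPKM for Gjb6 and 1.43 ± 0.667 RPKM for Gja1. Gja1 had 6.75, 18.6 and 18.6 CPM, and Gjb6 had 7.94, 30.1 and 48.4 CPM. Both were lowest in replicate 1, and the mean of Gjb6 was 28.8 CPM with replicate 3 and 19.0 without it. Gja1 minus Gjb6 was -2.61 ± 0.62 log2 units per length, below 0 in 3 of 3 libraries. The size of that gap rests on the length used. With the principal transcript of Gja1, 3182 bases against 10257 bases for the whole model, the gap was -1.34, and without any length it was -0.73.

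Mlc1 and Hepacam encode partner proteins that sit at astrocyte junctions. Mlc1 had 17.3, 4.99 and 7.57 CPM and was highest in replicate 1, without which its mean fell from 9.97 to 6.28 CPM. Hepacam had 49.9, 34.2 and 83.9 CPM and was highest in replicate 3. Hepacam exceeded Mlc1 in 3 of 3 libraries by 2.29 ± 0.97 log2 units per length, a 4.90-fold difference whose log2 size ran from 1.25 in replicate 1 to 3.17 in replicate 3. Ttyh1, a tweety family membrane protein that neurons can also make, had 51.4, 11.2 and 0.898 CPM (388, 99 and 7 counts). Replicate 1 was thus 57.2-fold above replicate 3, the widest spread of the 31 detected genes, and without replicate 1 the mean fell from 21.2 to 6.07 CPM. Models on the opposite strand overlap 6.65% of the exon bases of Ttyh1.

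Among enzymes and transporters, Aldoc (aldolase C, a glycolytic enzyme) was the highest per length at 213 ± 20.7 RPKM, with 774, 666 and 649 CPM in replicates 1, 2 and 3. Purkinje cells also make Aldoc, and the 6 Purkinje markers summed to 5699, 7621 and 7027 CPM in the same libraries. Replicate 1 was highest for Aldoc and lowest for that sum. By gene, 4, 1 and 1 of the 6 markers were lowest in replicates 1, 2 and 3. The part of Purkinje cells in the Aldoc level was not tested. Ndrg2, a cytoplasmic protein abundant in astrocytes, had 366, 414 and 248 CPM. Acsbg1, an acyl-CoA synthetase, had 47.4, 108 and 45.2 CPM and stood out in replicate 2. Dio2, the deiodinase that makes active thyroid hormone, had 47.7, 26.0 and 43.9 CPM and was lowest there.

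Aldh1l1, a folate enzyme widely used as a pan-astrocyte marker, was low at 2.91, 5.11 and 7.57 CPM (22, 45 and 59 counts). Models that overlap it cover 13.4% of its exon bases. The amino acid transporter Slc7a10 stood at 0.530, 1.25 and 3.85 CPM, from 4, 11 and 30 counts. It shares 17.9% of its exon bases with Lrp3 on the opposite strand, so that its few counts are uncertain. The cystine and glutamate exchanger Slc7a11 had 4.24, 5.90 and 33.0 CPM. Slc7a11 and Slc7a10 were both highest in replicate 3, and per length they differed by 0.05 ± 0.40 log2 units, less than the spread between libraries and with a sign that varied among them (0.20, -0.40 and 0.36; p = 1.0 by the same exact permutation test). That value rests on the 13922 exon bases of the Slc7a11 model. With principal transcript lengths Slc7a11 lay above Slc7a10 by 0.47 ± 0.43 in 3 of 3 libraries, and without length by 2.07 ± 0.65. The zinc transporter Slc39a12 had 2.25, 6.81 and 60.7 CPM (17, 60 and 473 counts), and replicate 3 was 27.0-fold above replicate 1. Its rank moved from 10246 in replicate 1 to 3130 in replicate 3. Replicate 3 set the means of these transporters. Without it the mean fell from 23.3 to 4.53 CPM for Slc39a12, from 14.4 to 5.07 CPM for Slc7a11 and from 1.88 to 0.889 CPM for Slc7a10.

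Gfap, the intermediate filament protein of astrocytes, had 25.9, 39.2 and 27.8 CPM. Its level was moderate and steady, between the 58.7th and 68.8th percentile of the genes with a count. Aqp4 exceeded Gfap by 2.58 ± 0.37 log2 units per length, a 5.96-fold difference in 3 of 3 libraries. S100b, a calcium-binding protein that oligodendrocytes also make, had 158, 130 and 131 CPM and stood at 94.2 ± 10.7 RPKM. Fabp7, the lipid-binding protein of radial and Bergmann glia, had 19.1, 14.4 and 3.46 CPM and was lowest in replicate 3, at 27 counts against 144 in replicate 1.

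Gdf10, a secreted growth factor of the bone morphogenetic protein family, and Hopx, a small homeodomain protein, mark Bergmann glia in the cerebellum. Gdf10 had 18.1, 13.5 and 50.9 CPM, with replicate 3 well above the others, and its mean of 27.5 CPM was 15.8 without that library. Hopx had 14.6, 10.9 and 15.8 CPM and held steady. Both Bergmann glia markers were highest in replicate 3, whereas Fabp7 was lowest in that library. Hopx lay above Gdf10 per length by 1.44, 1.44 and 0.09 log2 units in replicates 1, 2 and 3 (0.99 ± 0.78), so the pair was closest in replicate 3. The difference was -0.74 when length was left out. A model on the opposite strand, Hopxos, overlaps 27.2% of the exon bases of Hopx. Aqp4, which both astrocyte types make, exceeded Gdf10 by 3.26 ± 0.83 log2 units, or 9.56-fold, in 3 of 3 libraries.

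The transcription factor genes were uneven. Sox9, needed for glial fate, had 16.3, 45.3 and 75.7 CPM, with replicate 1 lowest. Sox2, a factor of neural progenitors that astrocytes keep, had 3, 4 and 8 counts (0.397, 0.454 and 1.03 CPM), at the limit of detection. Per length Sox9 exceeded Sox2 by 4.61 ± 0.72 log2 units (24.4-fold) in 3 of 3 libraries, and by 3.01 with a pseudocount of 1, since Sox2 is so low. Id4, an inhibitor of basic helix-loop-helix factors, had 5.69, 8.97 and 9.88 CPM. The receptor gene Fgfr3 had 10.6, 10.2 and 8.34 CPM. It was the only one of the 30 tested genes whose spread was not beyond counting error (Benjamini-Hochberg adjusted p = 0.316 by a Poisson chi-square test). A model on the opposite strand overlaps 13.9% of the exon bases of Fgfr3.

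Genes for secreted proteins ranged from Sparcl1 at 382 ± 52.1 RPKM to Htra1 at 2.30 ± 1.23 RPKM. Sparcl1 (hevin, a matrix protein that promotes synapse formation) had 1274, 1121 and 968 CPM and ranked 75, 92 and 114 in replicates 1, 2 and 3. Its relative Sparc had 243, 343 and 208 CPM, and Sparcl1 exceeded it per length by 2.47 ± 0.36 log2 units, or 5.54-fold, in 3 of 3 libraries. Both are also made outside the lineage. Clu (clusterin, an extracellular chaperone) had 109, 102 and 59.9 CPM. Cst3, the protease inhibitor cystatin C, had 65.0, 41.2 and 50.4 CPM, and the serine protease gene Htra1 had 2.52, 8.74 and 8.60 CPM. Sparcl1, Sparc and Clu were lowest in replicate 3, whereas Cst3 was lowest in replicate 2 and Htra1 in replicate 1.

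Ordered per length, the genes ran from Mt2 (521 ± 105 RPKM), Sparcl1 (382 ± 52.1), Aldoc (213 ± 20.7), Ndrg2 (101 ± 25.1) and S100b (94.2 ± 10.7 RPKM) to Slc7a11 (1.03 ± 1.16), Mt3 (0.923 ± 1.60), Slc7a10 (0.889 ± 0.827) and Sox2 (0.304 ± 0.169 RPKM). Mt1, Sparc, Slc4a4, Aqp4 and Cst3 came next from the top. The widely used markers Gfap (7.35 ± 1.69 RPKM), Gja1 (1.43 ± 0.667 RPKM) and Aldh1l1 (1.15 ± 0.516 RPKM) stood in the lower part of this order by exon length. Of the 31 steps between neighbours, 6 held in 3 of 3 libraries with a mean difference beyond its SD. These were Sparcl1 over Aldoc, Aldoc over Ndrg2, Slc4a4 over Aqp4, Cst3 over Clu, Id4 over Gja1 and Slc7a10 over Sox2. The other neighbours did not differ beyond their spread or not in every library, Mt2 and Sparcl1 among them. With principal transcript lengths Mt2, Sparcl1 and Aldoc were again the first in the order (599.7, 406 and 250.03 RPKM). Mt1 then stood at 197 RPKM. Gja1 stood at 4.61 RPKM, above Id4 at 2.13 RPKM, so the step of Id4 over Gja1 turned in the means. Gfap stood at 11.7 RPKM, above Sox9 at 11.1 RPKM. The 6 steps were counted on exon length only and were not recounted with these lengths.

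The share of genes detected rose with transcript length, and whether length itself set detection was not tested. Among protein-coding genes with a principal transcript under 1000 bases, 17.8% of 1961 were detected, against 29.6% of 4706 at 1000 to 2000 bases, 48.9% of 7715 at 2000 to 4000 bases and 71.6% of 5378 at 4000 bases or more. The glial genes were detected in each class, at 4 of 5, 4 of 4, 14 of 14 and 9 of 9. The class under 1000 bases holds Fabp7, Cst3, Mt1, Mt2 and Mt3, so the undetected Mt3 is one of the shortest. Mt1 and Mt2 are as short and stood at 108 ± 31.4 and 306 ± 62.0 CPM. Spearman's rho between length and mean CPM was 0.04 over the 32 genes and 0.37 over the 9368 detected protein-coding genes. These are descriptions across genes of the same 3 libraries, and genes are not independent replicates.

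**Figure D2:**
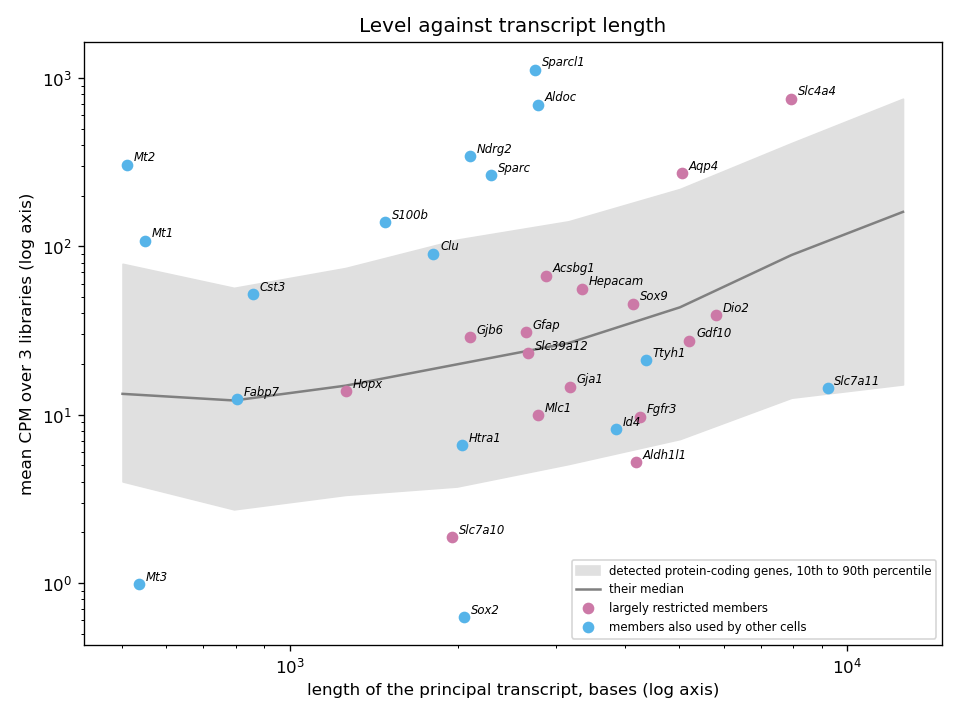
Mean CPM over 3 libraries against the length of the principal transcript, both on log axes, for the 32 genes as labelled points and for all detected protein-coding genes as a running median with the 10th to 90th percentile band. The median of all genes climbs with length, and the short Mt1 and Mt2 lie above the band while Aldh1l1, Slc7a10, Sox2 and Mt3 lie under it.

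The replicates differed, and most of the genes took part. Of the 30 glial genes with at least 10 counts in at least 2 libraries, 29 varied beyond counting error (Poisson chi-square, adjusted p under 0.05), with Fgfr3 the exception. That share is near the background, since 96.5% of all 11168 genes tested did the same. Against genes of the same level, by edgeR's quasi-likelihood dispersion, none of the 30 was called, as for all genes (0.0% called at an adjusted p under 0.05). Since this threshold called none of the 11168 genes over 3 libraries, it cannot set the glial genes apart from the rest. At an unadjusted p under 0.05 the count was 0 of 30 for the glial genes and 4.27% for all genes. Ttyh1 (unadjusted p = 0.0593) and Slc39a12 (unadjusted p = 0.0617) came closest in this model fitted across all genes, at 4.04 and 3.96 times the trended dispersion. Robust estimation and limma called 0 genes too, with 461 and 521 genes at an unadjusted p under 0.05.

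The highest library was above 4 times the lowest for 7 of the 30 genes, against 42.7% of all genes. These were Gjb6, Sox9, Slc7a10, Slc7a11 and Slc39a12, for which replicate 3 was above 4 times replicate 1 (5 of 30, against 14.4% of all genes), and Ttyh1 and Fabp7, for which replicate 1 was above 4 times replicate 3 (2 of 30, against 12.3%). The median coefficient of variation was 29.5% for the glial genes and 56.3% for all genes of the filter. Levels differ between these sets, and within levels of 10 to 30 CPM the medians were 72.2% for 8 glial genes and 69.8% for all genes. In the other level ranges the glial genes had the lower median. Under 10 CPM the medians were 49.3% for 6 glial genes and 86.7% for all genes, and at 30 to 100 CPM 29.5% for 7 glial genes and 46.5%. At 100 to 300 CPM they were 19.9% for 4 glial genes and 29.6%, and at 300 CPM or more 15.6% for 5 glial genes and 18.3%. The restricted genes had a median of 46.1% and the broadly expressed ones 26.8%.

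Lineage-restricted genes leaned to replicate 3. Of the 16, 10 had their highest level there, 3 in replicate 2 and 3 in replicate 1, where all genes gave 32.2% for replicate 3, 32.6% for replicate 2 and 35.2% for replicate 1. Their lowest level was in replicate 1 for 9, in replicate 2 for 5 and in replicate 3 for 2, against 36.2%, 32.2% and 31.6% of all genes. The 10 include Aqp4, Slc4a4, Sox9, Gjb6, Hepacam, Aldh1l1 and Slc39a12. The exceptions were Gja1, Acsbg1 and Gfap, highest in replicate 2, and Mlc1, Dio2 and Fgfr3, highest in replicate 1. The summed level of all 16 restricted genes was 1149.7, 1371 and 1685 CPM in replicates 1, 2 and 3. The 14 broadly expressed genes of the filter were highest in replicate 1 for 7, in replicate 2 for 3 and in replicate 3 for 4, and the whole broad set summed to 3387, 3308 and 2864 CPM. Over all 30 genes 14 were highest in replicate 3, 6 in replicate 2 and 10 in replicate 1. The oligodendrocyte markers summed to 3528, 4063 and 3175 CPM and the microglial ones to 47.5, 77.1 and 26.3 CPM, both lowest in replicate 3, as was the pan-neuronal sum. That pan-neuronal sum is dominated by Snap25 and Map1b (means of 14585 and 10384 CPM). By gene, 5, 2 and 5 of the 12 pan-neuronal markers were lowest in replicates 1, 2 and 3. Markers of oligodendrocyte precursors, another glial type, summed to 192, 142 and 292 CPM, with the highest sum in replicate 3. The 5 genes were split, since Vcan and Pdgfra were highest in replicate 3 and Olig1, Olig2 and Cspg4 were lowest there. The Purkinje sum, given above, was lowest in replicate 1. The part of these lists in the lean of the glial genes was not tested. No test compared the libraries, since each is 1 sample.

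**Figure D3:**
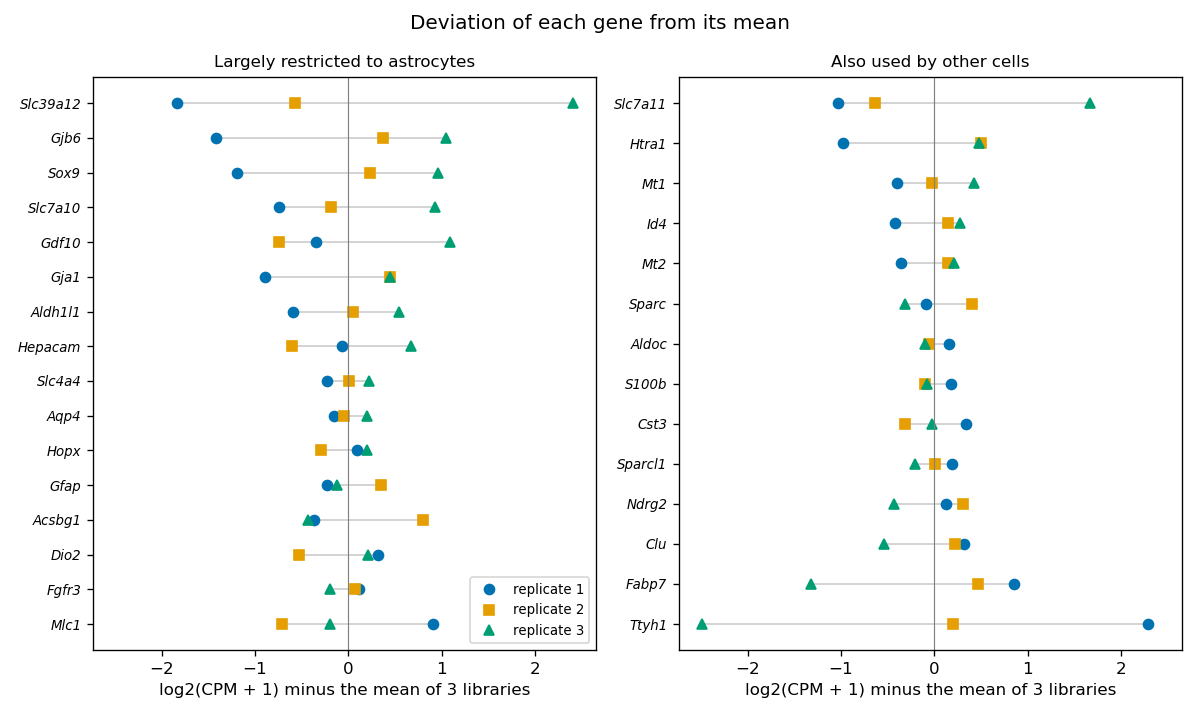
Deviation of log2(CPM + 1) from the mean of 3 libraries for the 30 genes with enough counts, restricted genes in one panel and broadly expressed genes in the other, with 1 symbol per library, sorted by replicate 3 minus replicate 1. Slc39a12 runs from -1.84 in replicate 1 to 2.41 in replicate 3, and Ttyh1 runs the other way, from 2.29 to -2.49.

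The restricted genes lay below the broad ones per length. Their medians of log2(RPKM + 0.1) were 2.33, 2.53 and 3.35 in replicates 1, 2 and 3, against 5.34, 4.96 and 4.73, a difference of -2.27 ± 0.83 with 1 sign in 3 of 3 libraries. The direction holds only over the full sets, where the difference was -1.38 by means and -1.28 without length. When genes whose coding transcript is under 2 kb were left out, 14 restricted and 9 broad genes stayed, and the difference turned to 0.74 ± 1.31 (p = 0.5 by the exact permutation test).

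The median of all 32 genes was 3.29 ± 0.24 on that scale. Its difference was -3.25 ± 0.33 from the median of the 12 pan-neuronal genes and -2.29 ± 0.42 from that of 10 oligodendrocyte genes. It lay 2.78 ± 0.44 above the 10 vascular markers, of which 8 were detected and the endothelial Cldn5 had no count, and 4.19 ± 1.39 above the 10 microglial markers, of which 5 were detected and C1qa, Trem2 and Aif1 had no count. None of the 4 changed sign between libraries, but sizes moved with the setting. The difference from the oligodendrocyte list was -1.20 by list means, and that from the microglial list was 2.76 with a pseudocount of 1 and 2.28 without coding transcripts under 2 kb. In all 15 differences were computed, 10 between genes and 5 between lists, and none can pass a threshold of 0.05 with 3 libraries. Per length the median of the glial genes thus lay between those of the oligodendrocyte and vascular lists.

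**Figure D4:**
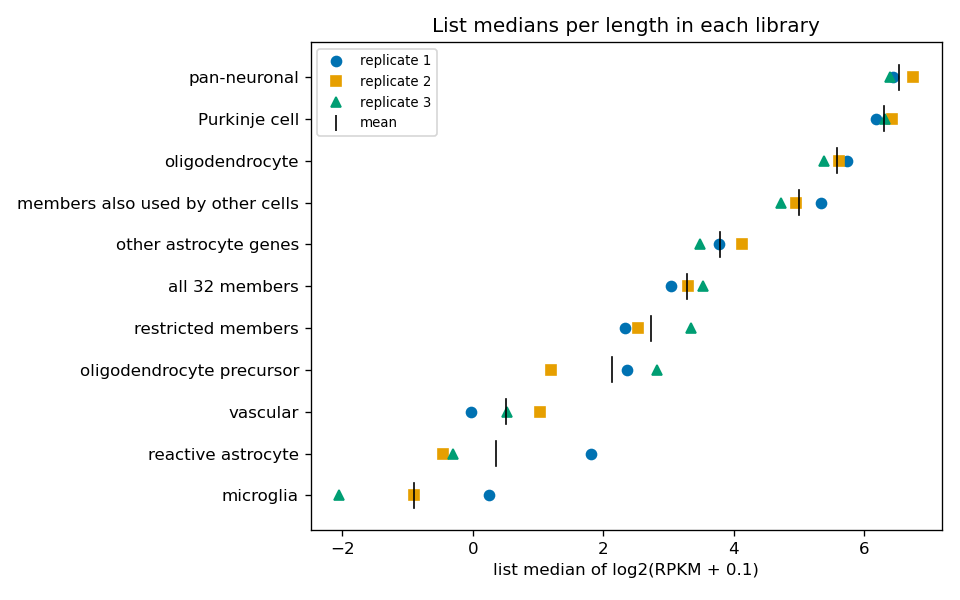
Median of log2(RPKM + 0.1) of each gene list, with 1 symbol per library. The 32 glial genes lie at 3.04 to 3.53, below the pan-neuronal list at 6.40 to 6.76 and above the vascular list at -0.03 to 1.02.

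Of 30 other genes of the astrocyte lineage, 27 were detected and 12 reached 100 CPM. Among the leading ones per length were Atp1b2 (412 ± 68.4 RPKM), a beta subunit of the sodium pump that neurons can share, the glutamine synthetase gene Glul (295 ± 36.4 RPKM), the glutamate transporter gene Slc1a2 (102 ± 12.9 RPKM) and the potassium channel gene Kcnj10 (68.5 ± 23.5 RPKM). Aqp4 at 43.8 RPKM and Slc4a4 at 69.8 RPKM lay near Kcnj10. The lowest were Gli1 (0.127 ± 0.0511 RPKM), a target of hedgehog signalling, Chrdl1 (0.372 ± 0.334 RPKM) and Mfge8 (1.26 ± 1.14 RPKM). Of the 28 that passed the filter, 6, 11 and 11 were highest and 15, 6 and 7 were lowest in replicates 1, 2 and 3, and the list summed to 7298, 8459.9 and 9019.8 CPM. Replicate 1 was the lowest in sum, which a few abundant genes such as Atp1b2 and Slc1a2 dominate. The list's median of log2(RPKM + 0.1) was 3.78, 4.13 and 3.48, lowest in replicate 3, where that of the restricted genes was highest.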

How the data were processed

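The data are 3 libraries of RNA immunopurified with anti-EGFP antibodies, 1 group, replicate numbers from the titles. The authors deposited whole-number read counts for each gene symbol, not normalized. STAR 2.0.0e, HTSeq and the build mm10 are listed in the submitters' processing notes. Annotation and strand setting were not given in the sources used here. HTSeq summary rows and a row named unknown (0 counts) were left out. The no-feature row held 50.2%, 44.1% and 44.7% in replicates 1, 2 and 3, and the ambiguous row 1.77% to 1.94%. Alignments that were not unique numbered 5263183, 4434540 and 3710157 in replicates 1, 2 and 3. Genes with a count numbered 13095, 13586 and 13951. Replicate 1 thus had the largest no-feature share and the fewest genes with a count. The 32 genes and all lists were chosen with earlier results of these data known, and the text names the 32, the genes of 10 fixed pairs and, from other lists, up to 5 of the highest and 3 of the lowest mean RPKM. An item that this rule would name is not reported here.

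CPM used TMM scaling (edgeR 4.0.16, R 4.3.3). RPKM used the union of exons in GENCODE M21 (GRCm38), which matched 23155 of 32531 symbols. Plpp3 stands under its older symbol Ppap2b and has no length. Differences used log2(RPKM + 0.1), which understates changes of low genes, and a sign-flip permutation test over libraries (exact, two-sided; scipy 1.17.1). Genes with at least 10 counts in at least 2 libraries (11168) entered a Poisson chi-square test and edgeR's quasi-likelihood dispersion against its trend, both with Benjamini-Hochberg adjustment and tested on simulated data. The upstream sequences are from RefSeq. Alternatives were DESeq2 1.42.0 size factors, library totals, limma 3.58.1, robust estimation, other lengths, pseudocount and filters, and each replicate left out.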

Additional observations from a re-analysis of the deposited data

How the results depend on the processing

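All but 3 of the 15 differences per length kept their direction under every alternative run. Those 3 were Hopx minus Gdf10, which was -0.74 on the log2(CPM + 1) scale without length, restricted minus broad genes, which was 0.74 without coding transcripts under 2 kb, and Slc7a11 minus Slc7a10, which ranged from -0.10 to 0.28 with 1 replicate left out and was -0.02 without replicate 1. The count of all genes called by the quasi-likelihood dispersion was 0 over 3 libraries and 2 to 5 with 1 left out, none of them among the 32 genes. The number of glial genes beyond counting error stayed at 29 with DESeq2 size factors and with library totals, and was 21 of 29, 23 of 28 and 26 of 29 tested without replicate 1, 2 and 3. Detection counted 31 genes at 1 count or more and 28 at 10 or more in every library. With DESeq2 size factors and library totals 15 and 16 genes were highest in replicate 3. With 3 libraries of 1 group no permutation test can pass 0.05, and Mt3, Sox2 and Slc7a10 rest on few counts. No paired analysis was possible because the labels give 1 group.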

Other observations

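Of 10 genes that astrocytes raise in injury or inflammation, 4 were detected in every library and 0 reached 100 CPM. Among all protein-coding genes with a gene model 47.4% were detected and 10% reached 100 CPM. Vim, an intermediate filament gene also made by endothelium and ependyma, was the highest, with 763, 554 and 855 counts in replicates 1, 2 and 3 (91.2 ± 24.9 CPM; SD, n = 3). The transcription factor gene Stat3 was steady at 245, 250 and 208 counts (29.2 ± 2.95 CPM). The others depended on the library. Nes, an intermediate filament of progenitors, had 290, 56 and 31 counts, and the adhesion receptor gene Cd44 had 16, 215 and 177. Serpina3n, a protease inhibitor gene often used as a sign of reactive astrocytes, had 136, 0 and 13 counts. The secreted lipocalin gene Lcn2 had 0 counts in each library, which allows up to 0.340 to 0.397 CPM. The list summed to 256, 133 and 173 CPM, so its sum was highest in replicate 1, and it includes genes not detected in every library. By gene, 5, 1 and 1 of the 7 that passed the filter were highest in replicates 1, 2 and 3. The sum of the lineage-restricted astrocyte genes was lowest in replicate 1, as were 9 of the 16 genes.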
